A study of Mus musculus with 20 samples.

Results

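Embryonic red cell genes were followed in mouse embryonic stem (ES) cells and in the embryoid bodies (EB) grown from them. The 9 genes were taken by name from the RNA table of 53440 gene symbols. They are the embryonic globins Hba-x, Hbb-y and Hbb-bh1, the alpha globins Hba-a1 and Hba-a2, the transcription factors Gata1, Klf1 and Tal1, and the heme enzyme gene Alas2. All 9 reached the level needed for testing, 1 FPKM (fragments of a gene relative to its transcript length and to library size) or more in 2 or more of the 8 libraries, and Klf1 and Alas2 did so through wild type EB alone.

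The cells are TL1, a mouse ES line kept in serum and LIF, a cytokine that holds ES cells undifferentiated. EB are aggregates in which the cells differentiate, here in the same medium without LIF. RNA was sequenced in 4 groups of 2 libraries: knockout EB, wild type EB, knockout ES cells and wild type ES cells. Knockout cells had lost p150 through CRISPR/Cas9. The protein p150, made from Chaf1a, is the biggest part of CAF-1, the complex that places new histones on replicated DNA. H3K27me3, a histone mark laid down by Polycomb complexes, and H3K4me3, a mark of active promoters, had 1 ChIP library in each of the same 4 groups. The EB ChIP titles hold an unexplained digit before EB, which the EB RNA titles lack. The labels state neither the day of EB culture nor the number of knockout clones. They also do not say whether each group's 2 libraries came from separate cultures. The tests therefore refer to the scatter of these libraries, and that scatter may be technical only.

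Haemoglobin is built from alpha-type and beta-type globin chains around heme. The first red cells of the embryo, the primitive erythroid cells of the yolk sac, use Hba-x (zeta globin) and the alpha globins together with Hbb-y (epsilon-y) and Hbb-bh1 (beta-h1), and later red cells use the adult beta globins. Gata1 encodes the zinc finger factor that drives erythroid genes, Klf1 a zinc finger factor that activates globin, heme and membrane genes, and Tal1 the basic helix-loop-helix factor needed to form blood from mesoderm. Alas2 encodes the erythroid form of the enzyme that carries out the first step of heme synthesis.

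Total FPKM per library lay between 641813 and 782026, and no read counts were used, so depth is unknown. Chaf1a averaged 33.3 ± 2.38 FPKM in knockout EB and 31.9 ± 0.32 FPKM in wild type EB (SD, n = 2 each), and 43.0 ± 7.15 FPKM in knockout ES cells and 46.2 ± 4.61 FPKM in wild type ES cells, so the level of this RNA does not check the genotype labels. The summed FPKM of 12 pluripotency genes was 7981 and 5667 in knockout EB against 340.2 and 598.0 in wild type EB, and it ran from 6366 to 7114 in the 4 ES libraries. Of all tested genes, 25.9% were lower and 20% higher in knockout EB than in wild type EB by limma (adjusted p under 0.05 over 15428 genes), so the 9 genes belong to a broad difference between these cultures.

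The start regions of some of the genes are shown because short words that GATA factors read recur in them. RefSeq promoter windows of build GRCm38.p6, 250 bases before and 50 after the transcript start, held 8 of the 9 genes (all but Hbb-bh1), Tal1 with a pair of starts. GATA words were the word AGATAA, its variant AGATAG, then the word TGATAA and, lastly, its variant TGATAG. The words of CACCC type, which KLF factors read, were CCACACCC, CCACGCCC, CCCCACCC and CCGCACCC, the TATA words were TATAAA and also CATAAA, and the fourth word was CCAAT. All were searched on both strands. Each sequence gives the 250 bases before the start, 5′ to 3′ on the strand of the gene, with matches to any of these words in capitals. A word on the opposite strand shows as its complement read backwards, such as TTATCA.
Hba-x, chr11:32276350-32276599, plus strand: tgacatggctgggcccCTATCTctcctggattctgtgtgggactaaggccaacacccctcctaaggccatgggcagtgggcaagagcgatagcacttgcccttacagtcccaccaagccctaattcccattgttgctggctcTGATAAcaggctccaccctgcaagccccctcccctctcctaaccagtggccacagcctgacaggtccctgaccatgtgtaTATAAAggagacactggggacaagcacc
Hba-a1, chr11:32283422-32283671, plus strand: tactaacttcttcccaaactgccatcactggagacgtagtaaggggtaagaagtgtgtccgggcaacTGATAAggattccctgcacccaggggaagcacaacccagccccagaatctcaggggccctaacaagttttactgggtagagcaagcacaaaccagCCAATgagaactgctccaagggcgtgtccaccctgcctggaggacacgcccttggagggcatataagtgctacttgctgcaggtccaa
Hbb-y, chr7:103853208-103853457, minus strand: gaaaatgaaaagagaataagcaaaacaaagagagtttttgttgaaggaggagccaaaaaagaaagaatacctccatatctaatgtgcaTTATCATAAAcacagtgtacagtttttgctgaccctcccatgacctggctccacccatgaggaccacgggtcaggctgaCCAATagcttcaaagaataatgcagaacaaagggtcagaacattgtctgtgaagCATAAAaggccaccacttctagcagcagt
Klf1, chr8:84901732-84901981, plus strand: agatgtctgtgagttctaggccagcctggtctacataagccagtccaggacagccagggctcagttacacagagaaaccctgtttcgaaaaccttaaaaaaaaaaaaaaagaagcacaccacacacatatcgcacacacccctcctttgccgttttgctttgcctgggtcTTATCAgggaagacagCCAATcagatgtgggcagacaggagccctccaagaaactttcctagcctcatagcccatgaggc
Alas2, chrX:150547167-150547416, plus strand: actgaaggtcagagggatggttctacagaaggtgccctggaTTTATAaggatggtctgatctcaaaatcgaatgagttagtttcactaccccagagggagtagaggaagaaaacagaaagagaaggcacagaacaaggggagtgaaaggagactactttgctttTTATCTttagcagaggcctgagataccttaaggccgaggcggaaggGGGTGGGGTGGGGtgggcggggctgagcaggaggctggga

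In the embryonic zeta globin gene Hba-x, a GATA word began 108 bases before the start and TATAAA 28 bases before it, and a further GATA word began 234 bases before it. Hba-a1 held a GATA word 183 bases and CCAAT 88 bases before its start. The windows of Hba-a1 and Hba-a2 share an identical run of 297 of 300 bases, so Hba-a2 is not printed, whereas the longest run shared by Hba-a1 and Hba-x is 10 bases. In Hbb-y the GATA word, on the strand opposite to the gene, overlaps a CATAAA word, and a second CATAAA begins 29 bases before the start. Klf1 had a GATA word at 80 bases and CCAAT at 64 bases before the start, and Alas2 a GATA word at 86 bases and overlapping CACCC words at 40 and 35 bases. Windows with a GATA word belonged to 7 of the 8 genes, all but Gata1, against 29.8% of 32851 RefSeq windows of that length. The count is of genes and the share is of windows. Tal1 counted through only 1 of its pair of starts, and the near-identical Hba-a1 and Hba-a2 counted separately. CACCC words were in 2 of the 8 genes (18.7% of windows), TATA words in 3 (22.8%) and CCAAT in 4 (37.4%). A match describes the letters of a window and not binding. Only the exact words were counted, so a gene without a match can still hold a close variant.

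All 9 genes were lower in knockout EB than in wild type EB, and every knockout library lay below every wild type library for each of them, as held for 42.2% of all tested genes. All 9 passed the limma test, against 25.9% of all genes called lower. Klf1 and Alas2 passed the filter on low values through wild type EB alone, so they had to be lower in knockout EB. The 5 globins stood at 1.05% to 3.16% of their wild type mean and Alas2 at 3.10%. The transcription factors stood at higher shares, 37.4% for Tal1, 31.2% for Gata1 and 8.97% for Klf1. Levels are FPKM, and differences are on the log2(FPKM + 1) scale, which understates the change of low genes. In bulk RNA, fewer cells of a type and less RNA per cell cannot be told apart.

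Among the alpha-type genes, Hba-x (mm10 chr11:32276400-32278116) had 4.16 and 6.23 FPKM in knockout EB against 734 and 165 FPKM in wild type EB. Both knockout libraries were far under the lower wild type one, with a log2 difference of -5.84 ± 0.64 (SE, limma adjusted p = 0.000897). The next gene of the cluster, Hba-a1 (chr11:32283511-32284465), had 2.66 and 5.05 FPKM in knockout EB against 416 and 124 FPKM in wild type EB (log2 difference -5.60 ± 0.56 SE, limma adjusted p = 0.000648). Its near copy Hba-a2 (chr11:32296489-32297298) had 2.11 and 4.53 FPKM in knockout EB against 283 and 110 FPKM in wild type EB (log2 difference -5.42 ± 0.45 SE, limma adjusted p = 0.000403). The coding copies are alike enough that reads can be split between them, so their separate values are uncertain.

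The beta-type embryonic genes fell as well. Hbb-y (chr7:103851749-103853216) had 1.55 and 5.68 FPKM in knockout EB against 540 and 151 FPKM in wild type EB (log2 difference -6.12 ± 0.65 SE, limma adjusted p = 0.000804). The largest log2 difference of the 9 genes was this one. Hbb-bh1 (chr7:103841637-103843164) kept the highest level of the 9 genes in knockout EB, 21.9 and 14.7 FPKM, against 958.5 and 198 FPKM in wild type EB. Its log2 difference was -4.53 ± 0.71 (adjusted p = 0.0027), and its groups did not overlap.

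Alas2 (chrX:150547375-150570638) had 0.299 and 0.276 FPKM in knockout EB, against 14.5 and 4.06 FPKM in wild type EB (log2 difference -2.78 ± 0.47 SE, limma adjusted p = 0.00354). The knockout libraries were close to each other and both under the wild type ones. The Alas2 model overlaps those of Apex2 and Mir3620, and strand-specific counting is not stated, so reads of these genes cannot be told apart there.

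The 3 transcription factor genes were at single-digit FPKM throughout. Klf1 (chr8:84901928-84905291) had 0.172 and 0.452 FPKM in knockout EB against 5.36 and 1.59 FPKM in wild type EB (log2 difference -1.64 ± 0.40 SE, limma adjusted p = 0.0140). Gata1 (chrX:7959260-7978071) had 0.676 and 0.952 FPKM in knockout EB against 3.40 and 1.82 FPKM in wild type EB (log2 difference -0.96 ± 0.24 SE, limma adjusted p = 0.0153). Tal1 (chr4:115056426-115071755) had 1.35 and 2.14 FPKM in knockout EB against 5.77 and 3.57 FPKM in wild type EB (log2 difference -1.03 ± 0.28 SE, limma adjusted p = 0.0211). These 3 calls were lost when single libraries were left out, with the direction kept. Without knockout EB replicate 1 the log2 difference was -1.48 for Klf1 (adjusted p = 0.0812), -0.85 for Gata1 (adjusted p = 0.0801) and -0.82 for Tal1 (adjusted p = 0.115). Without wild type EB replicate 1 it was -0.64 for Gata1 (adjusted p = 0.0601) and -0.75 for Tal1 (adjusted p = 0.111). The 5 globins and Alas2 kept their calls in each of the up to 16 alternatives in which they were tested.

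**Figure D1:**
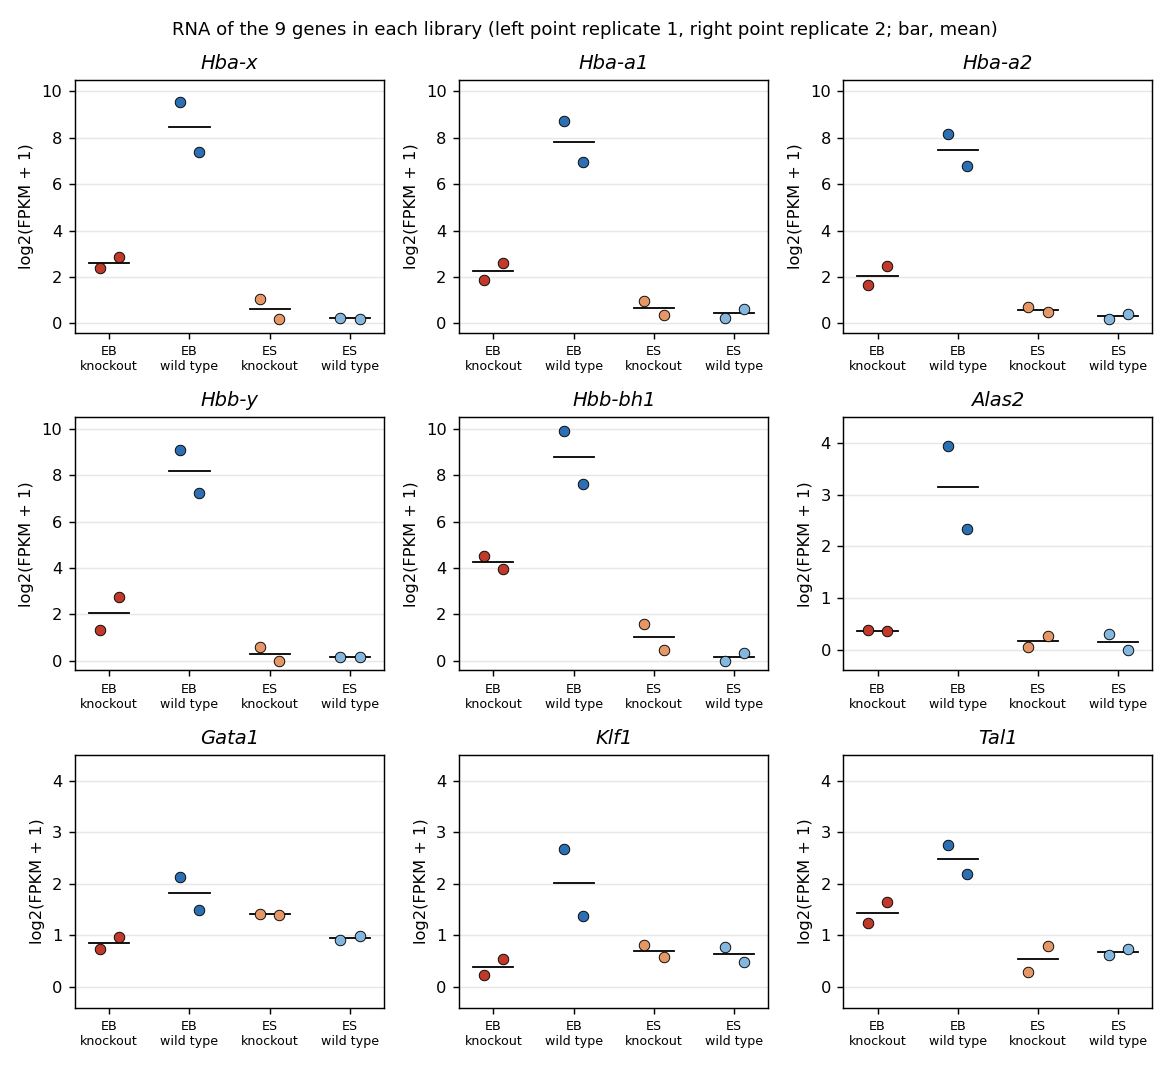
RNA level of the 9 genes as log2(FPKM + 1) on the vertical axis, with 1 point for each library, the left point of a pair being replicate 1, and a bar at the mean of n = 2. The wild type EB points of the 5 globins lie above 100 FPKM, and the knockout EB points lie at or under 21.9 FPKM.

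Wild type EB gave the genes an order that differed between the replicates only in its last pair. By mean FPKM it ran Hbb-bh1 (578 ± 537), Hba-x (449 ± 402), Hbb-y (346 ± 275), Hba-a1 (270 ± 207), Hba-a2 (197 ± 123), Alas2 (9.26 ± 7.36), Tal1 (4.67 ± 1.55), Klf1 (3.48 ± 2.66) and Gata1 (2.61 ± 1.12), each ± SD, n = 2. Neighbours in this order differed by less than the larger of their SDs, apart from the step between the globins and Alas2. The knockout EB means put Hbb-bh1 first, at 18.3 ± 5.10 FPKM, and Hba-x second, at 5.19 ± 1.46 FPKM. Last came Klf1 at 0.312 ± 0.198 and Alas2 at 0.287 ± 0.016 FPKM, whose ranges overlapped.

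The makeup of the globin RNA was compared per library. The 5 globins with Hbb-bs and Hbb-bt, the adult beta globin genes, made up 0.00426% and 0.00490% of total FPKM in knockout EB, against 0.432% and 0.120% in wild type EB. Hba-x took 46.6% and 39.4% of the alpha-type sum in knockout EB and 51.2% and 41.3% in wild type EB, so these shares overlapped. Hbb-bh1 exceeded Hbb-y by a ratio of 14.1 and 2.58 in knockout EB and of 1.78 and 1.31 in wild type EB, ranges that did not overlap and were not tested. The adult genes gave 3.98% and 2.64% of the beta-type sum in knockout EB and 1.37% and 5.60% in wild type EB.

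The adult beta globins fell together with the embryonic ones. Hbb-bs had 0.393 and 0.433 FPKM in knockout EB against 15.9 and 15.5 FPKM in wild type EB (log2 difference -3.56 ± 0.21 SE, limma adjusted p = 0.000205). Hbb-bt had 0.579 and 0.119 FPKM in knockout EB against 4.84 and 5.28 FPKM in wild type EB (log2 difference -2.19 ± 0.21 SE, limma adjusted p = 0.000576). The short Hbb-bh0 model was listed at 0 in knockout EB, while the wild type EB libraries had 1536 and 810 FPKM. Its level depends strongly on a model of 129 bases and is uncertain. All 8 globin models that could be tested were called lower, but Hbb-bh0, Hbb-bs and Hbb-bt passed the filter on low values through wild type EB alone, the group where they were high. Of the others, Hbq1a, Hbq1b, Hbb-bh2 and Hbb-bh3 were under the level needed for testing. Hbb-b1 and Hbb-b2 had no RNA entry under those names.

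Before differentiation the genes were near the floor in both genotypes. Over the 5 globins, FPKM ran from 0 to 2.02 in knockout ES cells and from 0 to 0.542 in wild type ES cells. Hbb-bh1 had 2.02 and 0.383 FPKM in knockout ES cells against 0 and 0.268 FPKM in wild type ES cells. Gata1 had 1.68 and 1.63 FPKM in knockout ES cells against 0.890 and 0.982 FPKM in wild type ES cells. Its log2 difference of 0.46 ± 0.24 did not pass the test (limma adjusted p = 0.466). limma called 0 of the 9 genes in either direction, against 0.421% of all genes higher and 0.0778% lower.

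All 9 genes were higher in wild type EB than in wild type ES cells (limma, 9 called higher against 36.1% of all genes, and 0 lower against 24.8%). Klf1 and Alas2, which passed the filter through wild type EB alone, had to be higher in that group. The globins gained 7.17 to 8.60 on the log2 scale, with Hbb-bh1 the most at 8.60 ± 0.71 (adjusted p = 8.4e-05). Alas2 gained 3.00 ± 0.47 (adjusted p = 0.00121), Tal1 1.79 ± 0.28 (adjusted p = 0.00124), Klf1 1.39 ± 0.40 (adjusted p = 0.0191) and Gata1 0.86 ± 0.24 (adjusted p = 0.0164). The Gata1 call was lost without wild type EB replicate 1 (0.0714), wild type ES replicate 1 (0.0715) or wild type ES replicate 2 (0.0564), and the Klf1 call without wild type ES replicate 2 (0.0905).

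In knockout cells, EB against ES cells, 2 of the 9 genes passed the test as higher (17.1% of all genes did), Hbb-bh1 and Tal1, and 0 as lower (12% of all genes). Single libraries moved this count: it was 0 without knockout EB replicate 1, knockout EB replicate 2 or knockout ES replicate 2, and 1 without knockout ES replicate 1 or either wild type ES library. It was 6 without wild type EB replicate 1 and 5 without wild type EB replicate 2, which enter through the shared estimate of the spread. Hbb-bh1 rose by 3.21 ± 0.71 (limma adjusted p = 0.0164), a call lost without knockout EB replicate 1 (0.0795), knockout EB replicate 2 (0.0578) or knockout ES replicate 2 (0.0769). Tal1 rose by 0.90 ± 0.28 with an adjusted p of 0.0498, next to the threshold. The other 4 globins had log2 differences of 1.46 to 2.00 and adjusted p from 0.0502 to 0.0831. Gata1 and Klf1 had lower means in knockout EB than in knockout ES cells, and neither difference passed the test. Gata1 had 0.676 and 0.952 FPKM in knockout EB against 1.68 and 1.63 FPKM in knockout ES cells (log2 difference -0.56 ± 0.24, adjusted p = 0.122), and Klf1 a log2 difference of -0.32 ± 0.40 (adjusted p = 0.582).

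The knockout effect itself differed between EB and ES cells for 7 of the 9 genes (limma interaction, 7 called lower against 18.6% of all genes, and 0 higher against 12.7%). For the globins the difference of effects ran from -6.25 for Hbb-y to -5.39 for Hbb-bh1, with adjusted p from 0.00293 to 0.00945. Alas2 had -2.79 ± 0.66 (adjusted p = 0.0202) and Gata1 -1.42 ± 0.34 (adjusted p = 0.0204), while Klf1 (-1.70 ± 0.56, adjusted p = 0.0569) and Tal1 (-0.89 ± 0.40, adjusted p = 0.129) did not pass. Klf1 and Alas2 passed the filter on low values through wild type EB alone, which tilted their difference of effects downward. The Alas2 call is therefore no independent result. The Alas2 and Gata1 calls were each lost when 1 library was left out. For Alas2 the adjusted p was 0.0624 without knockout EB replicate 1, 0.0562 without knockout ES replicate 2, 0.0505 without wild type ES replicate 1 and 0.0633 without wild type ES replicate 2. For Gata1 it was 0.0643 without knockout EB replicate 1, 0.0547 and 0.0504 without knockout ES replicate 1 or 2, and 0.0635 and 0.0557 without wild type ES replicate 1 or 2.

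The wild type EB libraries differed from each other in the embryonic red cell genes. All 9 genes were higher in replicate 1, by a factor of 4.83 for Hbb-bh1, 4.45 for Hba-x, 3.57 for both Hbb-y and Alas2, 3.36 for both Hba-a1 and Klf1, 2.58 for Hba-a2, 1.88 for Gata1 and 1.62 for Tal1. Over all tested genes the median ratio was 0.977, and 3.64% of genes were at least 2-fold higher in replicate 1. Other blood genes did not all share this order. The adult globins Hbb-bs and Hbb-bt had ratios of 1.03 and 0.917, Gfi1b, which encodes an erythroid and megakaryocyte repressor, 0.770, and Epor, the erythropoietin receptor gene, 0.934. Gata2, active in earlier blood progenitors, had 10.1 FPKM in replicate 1 and 30.5 FPKM in replicate 2, and the platelet factor gene Pf4 had 2.83 and 20.7 FPKM. In the knockout EB libraries 7 of the 9 genes were lower in replicate 1.

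**Figure D2:**
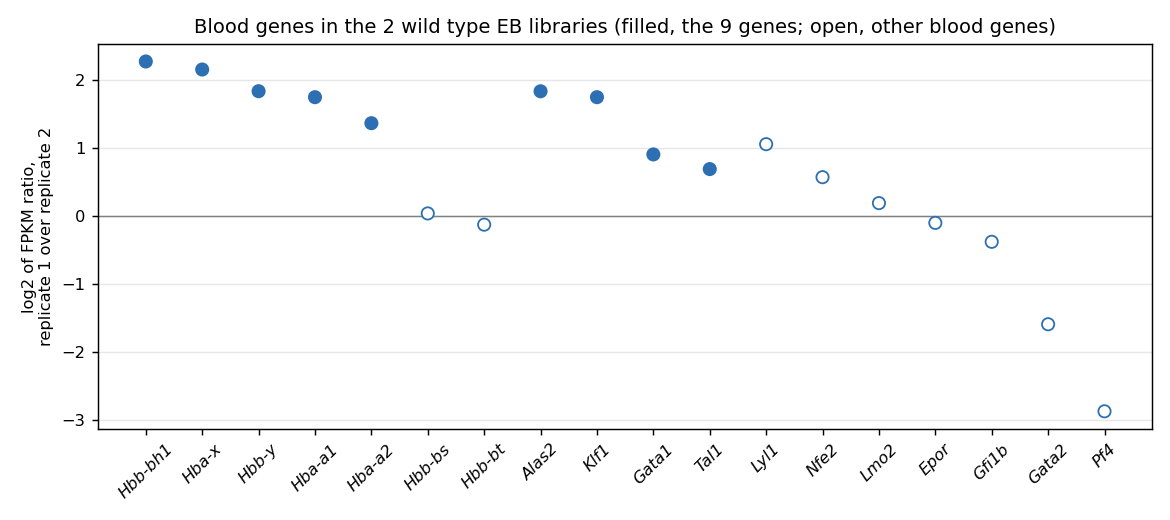
log2 of the FPKM ratio between the 2 wild type EB libraries, replicate 1 over replicate 2, for the 9 genes (filled) and other blood genes (open). All 9 lie above 0, Hbb-bs and Hbb-bt lie near 0, and Gata2 and Pf4 lie below it.

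Other genes of the red cell programme were read from lists, with knockout EB against wild type EB by limma. Of 16 tested erythroid regulators, 12 fell and 1 rose (median log2 difference -1.03, against -0.06 over all tested genes, of which 25.9% fell and 20% rose). Gfi1b, Ikzf1 and Lyl1 of those that fell passed the filter on low values through wild type EB alone. Gfi1b had 0.268 and 0.294 FPKM in knockout EB against 3.82 and 4.96 FPKM in wild type EB (-2.07 ± 0.17, adjusted p = 0.0004). Epor fell by 2.08 (adjusted p = 0.000436) and Sox6, a repressor of embryonic globin in definitive red cells, by 2.36 (adjusted p = 0.00174). Myb, a factor of definitive progenitors, was the one that rose, with 10.1 and 7.53 FPKM in knockout EB against 0.793 and 0.822 FPKM in wild type EB (2.43 ± 0.23, adjusted p = 0.000531).

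Apart from Alas2, heme synthesis and iron genes showed no common direction. Of 16 tested, 2 rose and 2 fell, with a median log2 difference of 0.01 (20% of all tested genes rose and 25.9% fell). Slc25a37, the mitochondrial iron importer of red cells, fell by 1.21 (limma adjusted p = 0.00686) and Ppox, a late enzyme of heme synthesis, by 0.79 (adjusted p = 0.00812). Hmox1, which breaks heme down, rose by 1.08 (adjusted p = 0.00193), and the ferritin light chain gene Ftl1 rose by 0.73 (adjusted p = 0.00661). Urod, another heme synthesis enzyme gene, had 40.6 and 47.5 FPKM in knockout EB against 167 and 42.3 FPKM in wild type EB, which overlap (adjusted p = 0.204).

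Of 13 tested red cell membrane and function genes, 7 fell and 2 rose (median -0.59), against 25.9% and 20% of all tested genes. Kel, a red cell surface antigen gene, was listed at 0 in knockout EB and had 1.52 and 1.47 FPKM in wild type EB (limma adjusted p = 0.000917), and it passed the filter on low values through wild type EB alone. Gypc, a membrane glycophorin gene, fell by 1.69 (adjusted p = 0.00317) and Cited4 by 2.12 (adjusted p = 0.000839). Rhd, a blood group antigen gene, rose by 3.07 (adjusted p = 0.000165), and it was also at 10.8 and 9.85 FPKM in knockout ES cells against 3.09 and 3.14 FPKM in wild type ES cells.

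Genes of the endothelium and of other blood cells fell in part. Of 16 haemato-endothelial genes, 10 fell and 0 rose (median -1.42), against 25.9% and 20% of all tested genes. Their summed level was 136 and 205 FPKM in knockout EB against 432 and 293 FPKM in wild type EB. Fli1, a factor of blood and endothelium, fell by 1.97 (limma adjusted p = 0.00271), and Sox18, an endothelial factor, fell by 2.29 (adjusted p = 0.00866). The endothelial receptor gene Tie1 fell by 2.49 (adjusted p = 0.00425), and the related Tek fell by 1.60 (adjusted p = 0.00697). Of 9 tested genes of other blood cells, 4 fell and 1 rose (median -0.76), against the same 25.9% and 20% of all tested genes. All 4 that fell, Tyrobp, Fcer1g, Spi1 and Pf4, passed the filter on low values through wild type EB alone, so they had to be higher there. Tyrobp fell by 2.21 (adjusted p = 0.000344), Spi1, the PU.1 gene of myeloid cells, by 1.54 (adjusted p = 0.00239), and Fcer1g was listed at 0 in knockout EB and had 3.27 and 5.11 FPKM in wild type EB (adjusted p = 0.00102). Cd68, a macrophage marker, rose by 1.72 (adjusted p = 0.00326), with 9.51 and 5.61 FPKM in knockout EB. It was higher still in ES cells, at 18.65 and 13.48 FPKM in knockout and 17.17 and 11.98 FPKM in wild type cells.

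Markers of tissues other than blood changed as well, in a comparison where 25.9% of all tested genes fell and 20% rose. All 10 cardiomyocyte genes fell (median -4.78), Ttn having passed the filter through wild type EB alone, with a summed level of 31.3 and 281 FPKM in knockout EB against 4703 and 3431 FPKM in wild type EB. Of 10 stromal genes, 9 fell (Dcn having passed the filter in the same way) and 1 rose (median -4.08), with a summed level of 46.5 and 107 FPKM in knockout EB against 1252 and 1210 FPKM in wild type EB, and all 12 pluripotency genes rose (median 2.97). The median over the 9 red cell genes was -4.53. The part of these other tissues in the red cell result was not tested.

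**Figure D3:**
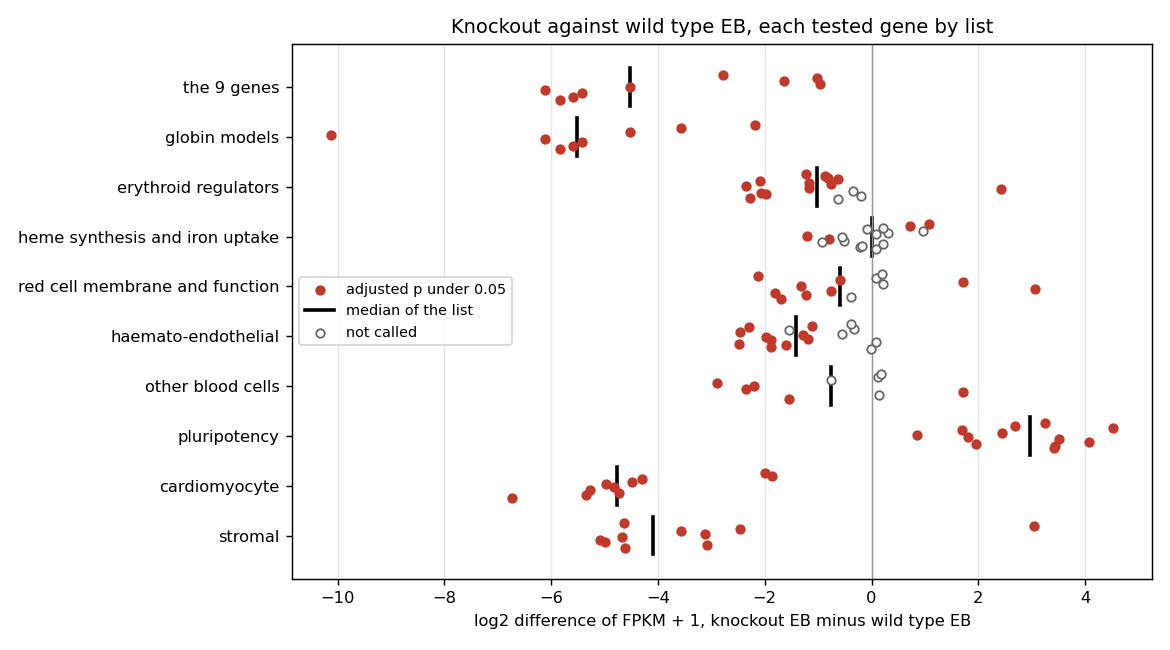
log2 difference of FPKM + 1, knockout EB minus wild type EB, for each tested gene of each list (filled, limma adjusted p under 0.05; open, not called; bar, median). The 9 genes lie between -6.12 and -0.96, and the cardiomyocyte and stromal medians are at -4.78 and -4.08.

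The ChIP tables give 1 value for each gene and library, and with 1 library a group no difference could be tested. The table values rose with the length of the gene, so a gene is compared only with itself between libraries, on the deposited scale and as log2 of the ratio after adding 0.1. Hba-a1 and Hba-a2 were at 0.004, below 1 step of the values, in all 8 libraries, and with them 111 of 20487 genes were that low throughout. Their near identity can affect where reads are placed, and they are left out of what follows, since such a value tells nothing of the mark.

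H3K27me3 differed by less than 2-fold between knockout and wild type EB at Hba-x, and it rested on few steps at the other globins and Alas2. Hba-x had a value of 2.70 in knockout EB and 2.52 in wild type EB, and 1.95 in knockout and 2.64 in wild type ES cells. Hbb-y had 0.294 in knockout EB and 0.080 in wild type EB, only 11 and 2 of the steps in which the values are spaced, and Hbb-bh1 had 9 and 3. Alas2 had 0.213 in knockout EB and 0.240 in wild type EB. The log2 ratio of 1.13 at Hbb-y rests on those few steps and was below 2-fold with 0.5 added.

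At the transcription factor genes Tal1 and Klf1, H3K27me3 values were lower in knockout EB than in wild type EB by more than 2-fold. Tal1 had 19.7 in knockout EB and 46.2 in wild type EB (log2 ratio -1.23), and 13.9 in knockout and 19.4 in wild type ES cells. Klf1 had 0.800 in knockout EB and 2.04 in wild type EB (log2 ratio -1.25), and 0.374 in knockout and 0.294 in wild type ES cells. Both genes had more of this mark in wild type EB, where their RNA was higher, than in wild type ES cells, with log2 ratios of 1.25 for Tal1 and 2.44 for Klf1. With libraries scaled to the same median the knockout EB ratios were -1.42 for Tal1 and -1.43 for Klf1, and with 0.5 added they were -1.21 for Tal1 and -0.97, under 2-fold, for Klf1. Gata1 had 1.63 in knockout EB and 2.12 in wild type EB, and 0.987 in knockout and 2.40 in wild type ES cells (log2 ratio in ES cells -1.20). Past 2-fold in knockout over wild type EB were 1 gene upward (5.82% of all genes) and 2 downward (6.72%), and in ES cells 0 upward (1.14%) and 1 downward (2.43%). In wild type EB over wild type ES cells 2 were past 2-fold upward (11.8%) and 0 downward (9.02%), and in knockout EB over knockout ES cells 0 upward (7.6%) and 0 downward (1.55%).

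H3K4me3 was lower in knockout EB than in wild type EB at Tal1 and Alas2. The Alas2 difference was past 2-fold but rested on 8 and 29 steps, and with 0.5 added its log2 ratio was -0.84, under 2-fold. Tal1 had 7.60 in knockout EB and 13.8 in wild type EB (log2 ratio -0.85), and 4.96 in knockout and 4.16 in wild type ES cells, so wild type EB exceeded wild type ES cells by 1.70. Alas2 had 0.213 in knockout EB and 0.774 in wild type EB (log2 ratio -1.48), and 0.320 in knockout and 0.534 in wild type ES cells. Klf1 had 19.3 in knockout EB and 21.5 in wild type EB (log2 ratio -0.15), and 13.3 in knockout and 12.5 in wild type ES cells. Its RNA in knockout EB was 8.97% of that in wild type EB. Gata1 had 1.20 in knockout EB and 1.15 in wild type EB, and Hba-x 0.560 and 0.427. Hbb-y and Hbb-bh1 were at 0.0267 in knockout EB and 0.080 in wild type EB, 1 to 3 steps. Past 2-fold in knockout over wild type EB were 0 genes upward (8.55% of all genes) and 1 downward (3.24%), and in ES cells 0 upward (0.743%) and 0 downward (0.318%). In wild type EB over wild type ES cells 1 was past 2-fold upward (9.28%) and 0 downward (10.9%), and in knockout EB over knockout ES cells 0 upward (1.35%) and 0 downward (1.94%).

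**Figure D4:**
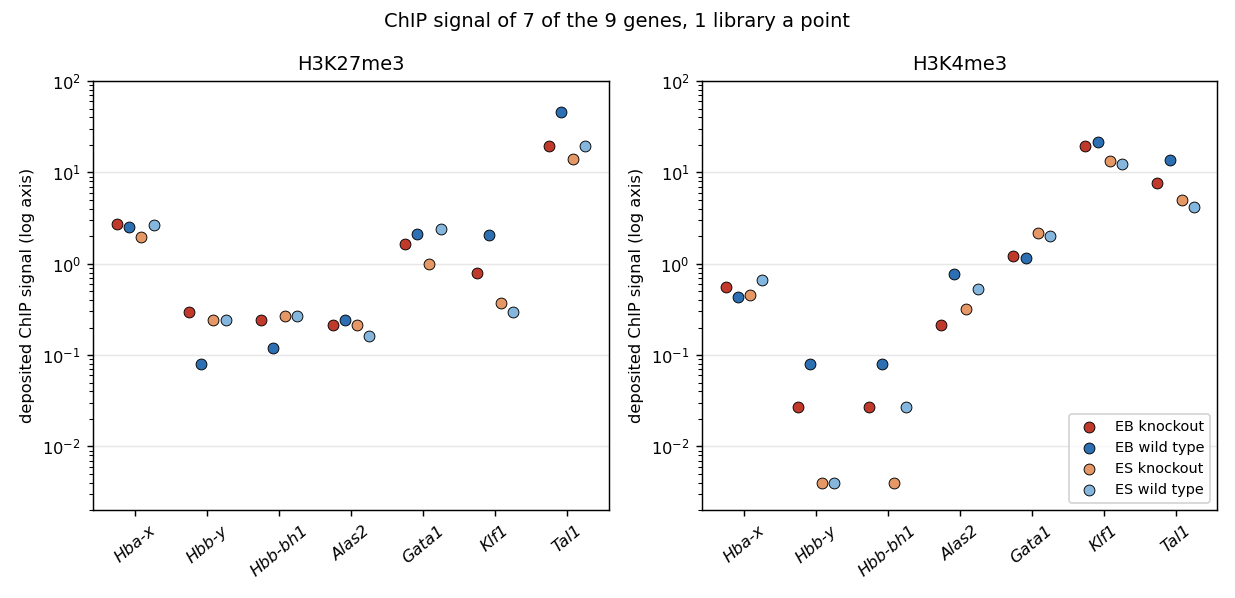
Deposited ChIP signal on a log axis for 7 of the 9 genes, left panel H3K27me3 and right panel H3K4me3, with 1 point a library and Hba-a1 and Hba-a2 left out. Tal1 and Klf1 have their highest H3K27me3 value in wild type EB, and Klf1 H3K4me3 stays between 12.5 and 21.5 in all 4 groups.

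Among regulators of the same programme, 8 of 18 had at least 2-fold more H3K4me3 in wild type EB than in wild type ES cells (9.28% of all genes). In knockout EB against knockout ES cells 0 of 18 did so (1.35%). The median log2 ratio of the list was 0.43 there and 0.88 in wild type cells. In knockout cells Myb (0.97), Gfi1b (0.96), Zfpm1 (0.95), Gata2 (0.92) and Lyl1 (0.90) were just under the limit. Nfe2 (-0.09) and Ikzf1 (-0.08) were below 0. The wild type count depended on library scale. With libraries scaled to the same median, Gata2 (log2 ratio 1.01) and Lmo2 (1.27) stayed past 2-fold. Sox6 (0.98), Runx1 (0.92), Zfpm1 (0.88), Cbfa2t3 (0.79), Epor (0.79) and Bcl11a (0.78) were then under it. For H3K27me3 in knockout over wild type EB, 4 of the 18 were at or past 2-fold upward (5.82% of all genes) and 3 downward (6.72%), with a median log2 ratio of 0.11. The upward ones were Jak2 (log2 ratio 1.36), Stat5b (1.36), Zfpm1 (1.02) and Kit (1.00), and the downward ones were Myb (-2.02), Lyl1 (-1.75) and Gata2 (-1.07). With libraries scaled to the same median, Zfpm1 (0.82) and Kit (0.81) were under 2-fold.

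The genes whose RNA followed the mean profile of the 9 genes most closely were ranked over the 8 libraries. By Pearson's r across these libraries, which fall into 4 groups, the closest were the clone-named model RP24-171J16.5 (0.996), Myocd (0.994), a coactivator of heart and smooth muscle genes, Rassf5 (0.993), Tspan31 (0.992), Tff3, Fbxl22 and Cck (0.989 each), Fmo1 (0.988), RP23-455C13.7 and the signalling ligand gene Wnt2 (0.987 each). Myocd had 0.154 and 0.632 FPKM in knockout EB and 8.28 and 3.60 FPKM in wild type EB. These correlations describe the libraries and carry no test.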

How the data were processed

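The series holds 20 samples: 8 RNA libraries, 8 ChIP libraries and 4 inputs, which were not analysed here. The deposited RNA table gives FPKM computed by the authors, and the deposited ChIP tables give a signal per gene whose unit was not settled, because values rose with gene length. The submitters' processing notes name mm10 and, in no stated role, DESeq2, HTSeq, Bowtie2, STAR 2.6.0a and Cufflinks 2.2.1. Where 120 symbols had a second entry, the one with the highest mean was kept. The 15428 genes reaching 1 FPKM in 2 or more of the 8 libraries were fitted on log2(FPKM + 1) with limma 3.58.1 (R 4.3.3), using a mean for each group and a trended eBayes prior (4 residual and 7.05 moderated degrees of freedom). Adjusted p-values are two-sided and follow Benjamini and Hochberg, over every tested gene in each contrast. The fit was tested on simulated data. ChIP ratios used 0.1 added to each value and a 2-fold limit. The genes and lists were chosen with earlier results of these data known. Named list genes are up to 4 called ones with the smallest adjusted p, and wild type library ratios and Urod were picked after their values were seen. RefSeq promoter windows are of GRCm38.p6. Alternatives are in the closing section. ChIP values lie on steps of 0.02668, or 0.04 for H3K27me3 in wild type EB.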

Additional observations from a re-analysis of the deposited data

Results flagged for a closer look

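The effect of the knockout differed between EB and ES cells by the limma interaction test for 7 genes. The difference of the knockout effects, EB minus ES on the log2 scale, was -6.24 for Hba-x, -5.83 for Hba-a1, -5.71 for Hba-a2, -6.25 for Hbb-y, -5.39 for Hbb-bh1, -2.79 for Alas2 and -1.42 for Gata1. All ES libraries of the globins were at 2.02 FPKM or below, so a fall in ES cells could hardly have been seen. Alas2 passed the filter on low values through wild type EB alone, which tilted its difference downward.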

How the results depend on the processing

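In knockout against wild type EB, 6 of the 9 genes (the globins and Alas2) kept direction and call in each alternative that tested them; a mean of at least 5 FPKM left 5 genes to test, of which 5 were called, as they also were in wild type EB against ES cells. Leaving out 1 library at a time gave 6 to 9 called genes in knockout against wild type EB, 7 to 9 in wild type EB against ES cells, 0 to 6 in knockout EB against ES cells, 5 to 8 for the difference of effects and 0 in every case in ES cells. In knockout EB against ES cells, 6 genes were called with 0.1 added, 0 without a filter and 1 after quantile normalization. Without a filter, the calls for Gata1 (0.0557), Klf1 (0.0542) and Tal1 (0.0734) in knockout against wild type EB were lost, as were Gata1 (0.0531) and Klf1 (0.0553) with only those 4 libraries and Tal1 (0.0739) with 0.1 added. Quantile normalization ended the calls of Gata1 (0.177) and Klf1 (0.0812) in wild type EB against ES cells. In ES cells, where no gene was called, signs turned. The values with 1 library left out ran from -0.02 to 0.82 for Hba-x, -0.09 to 0.55 for Hba-a1, -0.17 to 0.43 for Hbb-y, -0.08 to 0.20 for Klf1, -0.40 to 0.11 for Tal1 and -0.14 to 0.16 for Alas2. After quantile normalization Klf1 was -0.07 and Alas2 -0.01. The cause was not tested. With the replicate number as a block, 9 genes were again called in knockout against wild type EB and 2 in knockout EB against ES cells, but Hba-x (0.0497) took the place of Tal1 (0.0630) there. Same-numbered libraries correlated at 0.068 to 0.311 in their deviations, so the numbers were not taken as pairs. For H3K27me3, adding 0.5 left 0 genes past 2-fold upward and 1 downward in knockout over wild type EB and 0 downward in ES cells; adding 0.01 gave 2 lower in wild type EB over ES and 1 higher in knockout EB over ES, and equal totals gave 1 lower in wild type EB over ES. For H3K4me3, adding 0.5 left 0 lower in knockout over wild type EB, and adding 0.01 gave 3; adding 0.01 also gave 1 lower in ES knockout over wild type, 3 higher in wild type EB over ES and 2 higher in knockout EB over ES, and equal medians gave 1 lower in wild type EB over ES. The ES levels of the globins were near the floor, and the ChIP values of Hbb-y and Hbb-bh1 rest on few steps. Depth is unknown, and its part in these low values was not tested.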
